A study of Mus musculus with 18 samples.

Results

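Aldosterone was compared with vehicle after 2 hours in mouse aorta kept in organ culture, the earliest time at which hormone-treated tissue was collected. The comparison rested on 6 of the 18 arrays: 3 samples of vehicle and 3 of aldosterone at 100 nM, each made from 3 pooled aortas. All tissue came from male C57Bl/6 mice that had carried a subcutaneous pellet of spironolactone, 20 mg/kg/day for 5 days, before the aortas were placed in DMEM, so vehicle and hormone samples alike had been exposed to this antagonist of the mineralocorticoid receptor. Hormone and vehicle samples taken at 4 and 8 h, again 3 pools a group, served to follow the changes seen at 2 h. A probe set entered when at least 3 of the 6 samples at 2 h had a log2 value over 4. This left 11621 of 22690 probe sets, 10645 of which belong to 1 gene each, for 6790 genes in all. Of the 11621, 10820 were above 4 in all 6 samples. Another 217 were above 4 in exactly 3, with a median over probe sets of 4.06 for the mean of 6 samples, against 3.91 for the 297 left out with exactly 2 samples above 4. In 7 of those kept only the 3 aldosterone samples were above 4, and in 40 only the 3 vehicle samples were; for these the rule itself fixed the direction.

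Aldosterone is a steroid hormone of the adrenal cortex that enters cells and binds the mineralocorticoid receptor, a ligand-activated transcription factor related to the glucocorticoid receptor. The bound receptor moves to the nucleus and acts on genes near corticosteroid response elements, short palindromic DNA sequences that both receptors can use, so that some targets, among them Fkbp5, Per1, Tsc22d3, Sgk1 and Zbtb16, respond to hormones of both kinds. In kidney tubules this raises sodium uptake. In the vessel wall the receptor is present in smooth muscle and endothelium and has been linked to tone, oxidative stress, inflammation and fibrosis.

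Vehicle replicate 1 stood apart from the other 5 samples at 2 h. Its correlation with them over the 11621 probe sets was 0.950 to 0.958, against 0.983 to 0.990 among the other 5. Its median log2 value was 7.30, against 6.84 and 6.88 in vehicle replicates 2 and 3 and 6.93 to 6.97 in the aldosterone samples. In 1547 probe sets (13.3%) it was off by more than 1 from the mean of the other vehicle samples, 1102 times above and 445 times below, whereas for the remaining samples this number ran from 61 to 388. At 1 probe set Vegfa, an angiogenic growth factor, read 3.35 in it against 8.22 and 8.30 in the other vehicle samples. The fibrillar collagen Col3a1 read 10.93 against 13.86 and 13.84 at 1 probe set. At another probe set of each gene replicate 1 was instead the highest vehicle sample. It read 7.04 against 4.57 and 6.52 for Vegfa, and 9.51 against 8.47 and 8.94 for Col3a1. Each result is therefore given for all samples (the 6-sample comparison) and without this library (the 5-sample comparison, 3 aldosterone samples against vehicle replicates 2 and 3). Differences are aldosterone minus vehicle on the log2 scale ± SE, and adjusted p-values are from limma with Benjamini-Hochberg adjustment over the 11621 probe sets and a threshold of 0.05. The SE rests on 1 spread per probe set estimated over all groups, and not on the compared samples alone.

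The number of probe sets that passed the threshold at 2 h was small. In the 6-sample comparison 7 probe sets passed the threshold (0.0602%), 4 higher (0.0344%) and 3 lower (0.0258%), while before adjustment 1316 were under 0.05 (11.3%). In the 5-sample comparison 73 passed (0.628%), 54 higher (0.465%) and 19 lower (0.163%), and before adjustment 1674 were under 0.05 (14.4%). All 7 were among the 73. Over all 6 samples, 3 of the 7 and 4 of the 73 had samples of 1 group alone above 4, so that the rule fixed their direction. These were Bphl, Cytip and Prkra in both comparisons, and Vwa1 without replicate 1. For others, Fdps, Wdr55 and 2310061I04Rik among them, replicate 1 was the only vehicle sample above 4. Without it they too had only aldosterone samples above 4, and their direction is a description. The 73 include 60 probe sets with a single gene symbol, for 55 genes, 45 higher and 10 lower. When each sample was first centred on its median, the 6-sample comparison gave 12 higher and 3 lower. The 5-sample comparison then gave 28 higher and 27 lower, so the excess of rises (74.0% against 50.9%) depended on the scaling.

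Vehicle replicate 1 lay on the far side of the aldosterone samples for many of these probe sets. Over all 11621 probe sets replicate 1 was above the whole range of the aldosterone samples in 69.9%, within it in 16.4% and below it in 13.7%. Of the 54 probe sets that were higher without it, replicate 1 lay on the vehicle side of the aldosterone samples in 19, among them in 10 and beyond them in 25. Of the 19 that were lower, it lay on the vehicle side in 14, among them in 2 and beyond them in 3. The 5-sample difference had the sign of the 6-sample difference in 72 of the 73. The median difference over all probe sets was -0.078 with replicate 1 and 0.035 without it.

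**Figure D1:**
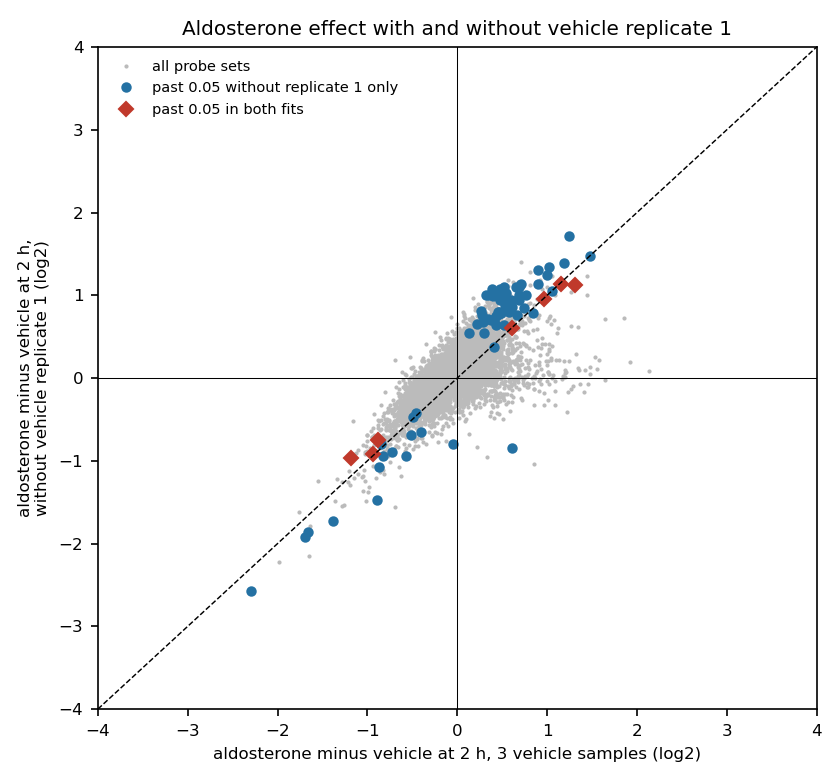
Log2 difference between aldosterone and vehicle at 2 h for each of the 11621 probe sets, with 3 vehicle samples (horizontal axis) and without vehicle replicate 1 (vertical axis); diamonds mark the 7 probe sets past an adjusted p of 0.05 in both, circles those past it only without replicate 1, and the dashed line is equality. Most of the circles in the upper right lie above the line, where the difference was larger without that library.

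Of the 7 genes called in both comparisons 4 were higher and 3 lower with aldosterone. Zfp52, which encodes a zinc finger protein, read 9.90, 9.95 and 9.86 in vehicle and 10.49, 10.64 and 10.42 with aldosterone. The difference was 0.61 ± 0.09 (1.53-fold, adjusted p = 0.0112) and 0.61 ± 0.09 without replicate 1 (adjusted p = 0.00697). The groups did not overlap, and replicate 1 sat between its mates. Another Zfp52 probe set, chosen after its values were seen, gave 0.67 (adjusted p = 0.132), or 0.76 without replicate 1 (adjusted p = 0.0412). Resf1, a factor that silences retroelements, read 6.82, 7.44 and 7.32 in vehicle and 8.42, 8.81 and 8.28 with aldosterone, a difference of 1.31 ± 0.20 (adjusted p = 0.0191). Another Resf1 probe set read 7.99, 7.23 and 7.25 against 8.59, 8.66 and 8.22 and passed only in the 5-sample comparison (1.25 ± 0.21, adjusted p = 0.0142; 6-sample adjusted p = 0.123).

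Bphl and Atp9a were higher from low levels. Bphl, a serine hydrolase, read 3.58, 3.50 and 3.78 in vehicle and 4.56, 4.93 and 4.82 with aldosterone. As all its vehicle samples lay at or under 4, it was at least 1.71-fold higher; it entered only through its aldosterone samples, so this is a description. Atp9a, a phospholipid flippase, read 4.16, 4.16 and 4.19 in vehicle and 5.03, 4.86 and 5.51 with aldosterone (0.96 ± 0.16, adjusted p = 0.0247). A brighter Atp9a probe set gave 0.73 (adjusted p = 0.23).

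Hes1 was the brightest of the 3 lower genes. This transcriptional repressor, a direct target of Notch, read 7.34, 6.63 and 6.74 in vehicle and 5.80, 5.56 and 5.80 with aldosterone. Its difference was -1.19 ± 0.20 (adjusted p = 0.0297) and -0.97 ± 0.18 without replicate 1 (adjusted p = 0.0294); replicate 1 was the highest vehicle sample, and all vehicle samples were above all aldosterone samples. Cytip, which binds cytohesins and is known from leukocytes, read 4.35, 4.44 and 4.15 in vehicle and 3.27, 3.32 and 3.53 with aldosterone, at least 1.24-fold lower. Prkra, whose protein switches on the antiviral kinase PKR, read 4.58, 4.17 and 4.17 against 3.53, 3.38 and 3.35, also at least 1.24-fold lower. Cytip and Prkra entered only through their vehicle samples, every aldosterone sample being under 4, and their values too are a description; with values under 4 set to 4 neither passed (-0.31 for both, adjusted p = 0.203 and 0.287). A brighter Cytip probe set gave -1.05 (adjusted p = 0.29).

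Single aldosterone libraries decided these calls as well. Without aldosterone replicate 1 no probe set passed in the 6-sample fit (1026 at an unadjusted p under 0.05), and without aldosterone replicate 2 none did either (1084). The differences hardly moved: that of Zfp52 was 0.63 (adjusted p = 0.0526) and 0.55 (adjusted p = 0.0665), and that of Hes1 -1.23 (adjusted p = 0.104) and -1.10 (adjusted p = 0.125). Without vehicle replicate 2, aldosterone replicate 3 or vehicle replicate 3, 4, 3 and 7 of the 7 remained past the threshold among 5, 5 and 22 calls. In the 5-sample comparison 1 probe set each of Zfp52, Mt2 and Nrg4, among others, kept an adjusted p under 0.05 whichever aldosterone sample was left out. Nrg4 lay near the floor of the assay, and without replicate 1 only aldosterone samples were above 4, so its call is a description. With values under 4 set to 4 its 5-sample difference was 0.02. The 73 calls became 12, 66, 29, 29 and 35 without vehicle replicate 2, vehicle replicate 3 and aldosterone replicates 1, 2 and 3, with 3, 23, 24, 24 and 25 of the 73 among them.

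**Figure D2:**
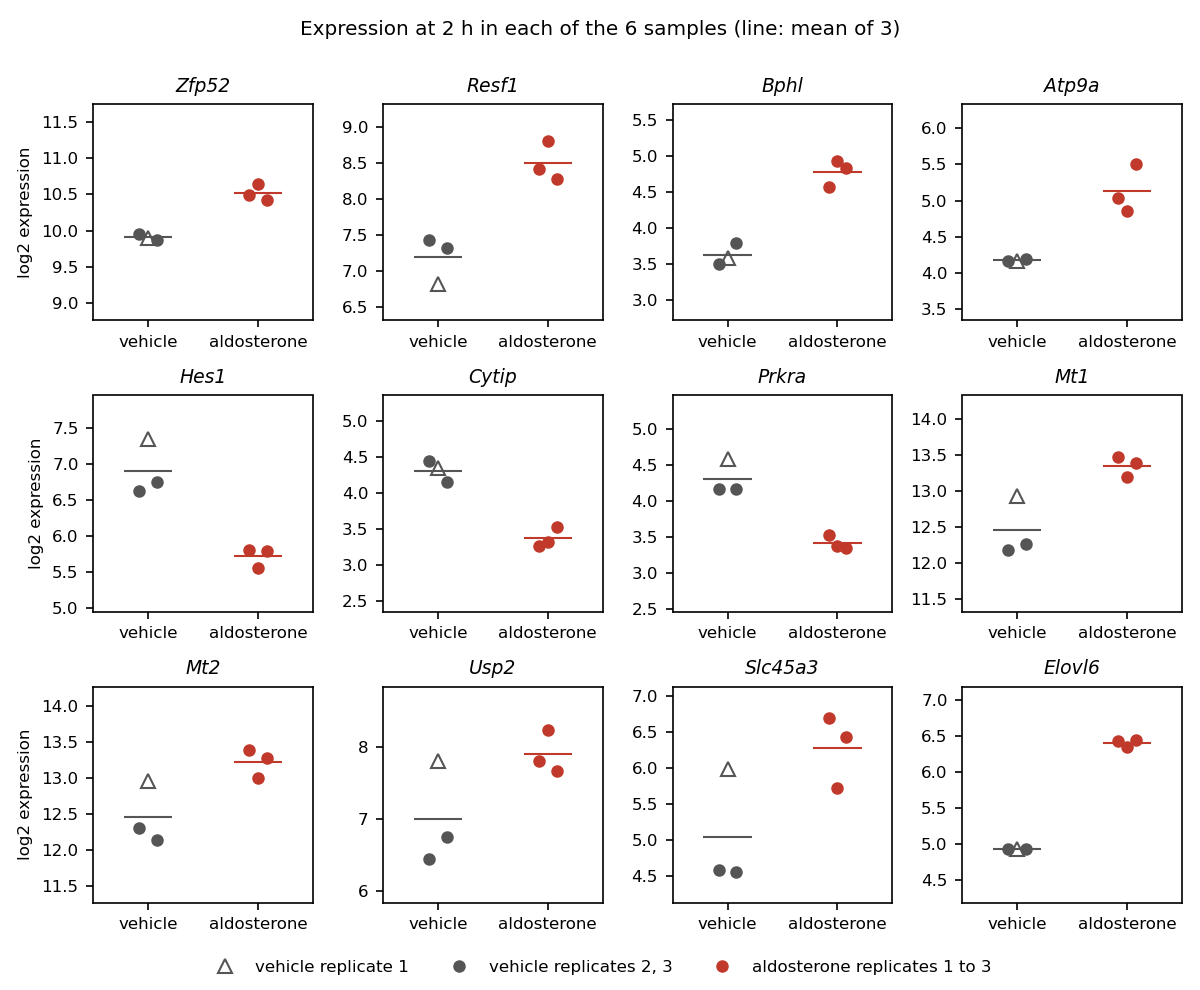
Log2 expression at 2 h in each of the 6 samples. Shown are the 7 genes past the threshold in both comparisons and 5 past it only without vehicle replicate 1. All vertical axes span the same number of log2 units, each centred on its own gene, and lines are means of 3 samples. The open triangle, vehicle replicate 1, lies with its mates in Zfp52, Bphl, Atp9a and Elovl6, and nearer the aldosterone samples than they are in Mt1, Mt2, Usp2 and Slc45a3.

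The metallothioneins were the brightest genes to rise without replicate 1. Mt1 and Mt2 encode small cysteine-rich proteins that bind zinc and copper and are known targets of glucocorticoids and metals. Mt1 read 12.93, 12.19 and 12.26 in vehicle and 13.48, 13.20 and 13.39 with aldosterone, with replicate 1 the highest vehicle sample and all aldosterone samples above all vehicle samples. The difference was 0.90 ± 0.18 (adjusted p = 0.086), and 1.13 ± 0.16 or 2.19-fold without replicate 1 (adjusted p = 0.00697). A dimmer Mt1 probe set gave 1.34 ± 0.22 without replicate 1 (adjusted p = 0.0124), a call that ended without vehicle replicate 2 or 3. Mt2 read 12.95, 12.30 and 12.14 against 13.39, 13.003 and 13.28, for a difference of 0.76 ± 0.18 (adjusted p = 0.132) and 1.0045 ± 0.15 without replicate 1 (adjusted p = 0.00697). The groups did not overlap for either gene with any vehicle sample included. The call of Mt1 ended without vehicle replicate 2 (1.09, adjusted p = 0.0768), while the 6-sample difference of both genes passed once samples were centred on their medians (adjusted p = 0.0238 for each). After quantile normalization Mt1 passed (adjusted p = 0.031) and Mt2 did not (0.76, adjusted p = 0.0837). Mt1 differed by 1.06 at 4 h (adjusted p = 0.0161) and 1.13 at 8 h (adjusted p = 0.00361), and Mt2 by 0.90 (adjusted p = 0.043) and 0.95 (adjusted p = 0.01), so both were near their later size at 2 h.

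Usp2 and Slc45a3 also rose without replicate 1. Usp2, a deubiquitinase of which an isoform is induced by aldosterone in kidney tubules, read 7.80, 6.44 and 6.74 in vehicle and 7.80, 8.23 and 7.66 with aldosterone. Replicate 1 lay within the aldosterone range, and the difference was 0.90 ± 0.26 (adjusted p = 0.226), or 1.30 ± 0.19 without it (adjusted p = 0.00697). Another Usp2 probe set, chosen after its values were seen, read 6.19, 6.88 and 6.78 against 8.20, 8.29 and 7.68; there replicate 1 was the lowest sample, the groups did not overlap, and the differences of 1.44 and 1.23 missed the threshold (adjusted p = 0.132 and 0.133). At 4 and 8 h the first of these probe sets differed by -0.05 and 0.08 (adjusted p = 1 for both). Slc45a3, a transporter first described in prostate, read 5.99, 4.59 and 4.56 against 6.70, 5.73 and 6.43, a difference of 1.71 ± 0.26 or 3.28-fold without replicate 1 (adjusted p = 0.00809) and 1.24 ± 0.33 with it (adjusted p = 0.18). At 4 and 8 h Slc45a3 differed by 1.99 (adjusted p = 0.00986) and 2.21 (adjusted p = 0.00142). Another Slc45a3 probe set gave 0.66 at 2 h without replicate 1 (adjusted p = 0.184), 1.30 at 4 h (adjusted p = 0.00729) and 0.72 at 8 h (adjusted p = 0.171). The calls of Usp2 and Slc45a3 ended without vehicle replicate 2 (adjusted p = 0.11 and 0.092).

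Several genes of lipid synthesis rose in the 5-sample comparison. Elovl6, which elongates saturated fatty acids, read 4.93, 4.94 and 4.94 in vehicle and 6.43, 6.35 and 6.44 with aldosterone. Its 3 vehicle samples, replicate 1 included, were alike, and the difference was 1.47 ± 0.31 (2.77-fold, adjusted p = 0.0412), with an adjusted p of 0.0686 when replicate 1 was kept. The highest sample of each group at 4 and 8 h read 4.88 to 4.98, near the vehicle level at 2 h. A brighter Elovl6 probe set read 8.25, 6.41 and 6.86 in vehicle and 7.72, 7.79 and 7.88 with aldosterone. There replicate 1 lay above every aldosterone sample. The difference was 0.62 (adjusted p = 0.61), or 1.16 without replicate 1 (adjusted p = 0.185). Pmvk, a kinase of the mevalonate pathway, read 5.53, 4.69 and 5.19 against 6.15, 6.51 and 6.32 (1.39 ± 0.30, adjusted p = 0.0473). Fdps, which makes farnesyl diphosphate, read 5.05, 3.37 and 3.22 against 4.29, 4.65 and 4.25, at least 1.32-fold higher without replicate 1 (fitted difference 1.10 ± 0.22, adjusted p = 0.0358). Replicate 1 of Fdps was above every aldosterone sample. Without it only the aldosterone samples of Fdps were above 4, so its direction is a description. For Elovl6, Pmvk and Fdps the call was lost whichever of the 5 samples was left out, with differences of 1.46 to 1.4997, 1.13 to 1.64 and 0.98 to 1.17.

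The whole synthetic pathways were counted from lists written after the values at 2 h were seen, so their counts are a description. Of 20 genes of fatty acid synthesis 16 were measured, each represented by its brightest probe set, and all 16 differences were above 0 with and without replicate 1, against 36.3% and 56% of all probe sets. Their median was 0.44 with replicate 1 and 0.60 without it, against -0.078 and 0.035 over all probe sets. No member passed with all samples, and 2 of 16 rose without replicate 1, where 0.465% of all probe sets were called higher: Srebf1, the transcription factor that drives this programme (0.80 ± 0.17, adjusted p = 0.0412), and Tkt, the transketolase of the pentose phosphate pathway (0.70 ± 0.10, adjusted p = 0.00697). The summed level of the list, as the mean log2 value over its 16 members, was 9.06, 8.57 and 8.85 in vehicle and 9.34, 9.39 and 9.29 with aldosterone, without overlap. Fasn, the fatty acid synthase, read 10.87, 9.71 and 10.30 against 10.94, 10.997 and 11.15 (1.02 ± 0.30 without replicate 1, adjusted p = 0.133). Acly, which supplies acetyl-CoA, gave 0.72 ± 0.17 without replicate 1 at one probe set (adjusted p = 0.0712). The median of the list was 0.13 at 4 h and -0.09 at 8 h, where no member passed.

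Markers of adipocytes also had medians above 0 with aldosterone. Their mean log2 level over the 8 measured of 11 markers was 9.61, 8.26 and 9.03 in vehicle and 9.16, 9.09 and 9.42 with aldosterone. Vehicle replicate 2 was the lowest sample and vehicle replicate 1 the highest, so the groups overlapped. In replicate 1 the fatty acid list, at 9.06, was instead below every aldosterone sample. All 8 marker differences were above 0 without replicate 1, with a median of 0.53. With it 5 of 8 were, with a median of 0.20, and none passed the threshold in either. Fabp4, Adipoq, Cidec, Ucp1, Cidea, Pparg, Lipe and Retn were the members measured, so the pools held RNA of fat cells. Whether more adipocytes or more RNA per adipocyte underlie a higher level cannot be told apart in bulk tissue. The part of the fat markers in the differences of lipid genes was not tested.

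Other biosynthetic lists had medians above that of all probe sets without replicate 1, each with 1 or 2 calls (0.465% of all probe sets were called higher). Of 13 measured genes of cholesterol synthesis 10 were above 0 (median 0.28), and 2 rose, Fdps and Pmvk. The call of Fdps is a description, as only its aldosterone samples were above 4 once replicate 1 was left out. Of 15 cytosolic aminoacyl-tRNA synthetases, the enzymes that charge tRNAs, 14 were above 0 (median 0.25), and Cars rose (1.09 ± 0.22, adjusted p = 0.0342) from 5.43, 4.14 and 4.27 to 5.34, 4.93 and 5.63. Eprs, of the same family, rose at another of its probe sets (0.88 ± 0.15, adjusted p = 0.0192). Of 32 subunits of respiratory complex I, 31 were above 0 (median 0.29), and Ndufs1 rose (0.54 ± 0.12, adjusted p = 0.0473). After median centring the calls of Cars (adjusted p = 0.0578), Ndufs1 (adjusted p = 0.074), Pmvk and Srebf1 (adjusted p = 0.0675 for both) ended, and after quantile normalization those of Ndufs1, Pmvk and Srebf1 did (adjusted p = 0.0518 to 0.0582). The 3 aldosterone samples lay above vehicle replicates 2 and 3 for 11 of the 15 synthetases and 22 of the 32 subunits, against 19.7% of all probe sets. With replicate 1 this held for 2 of 15 and 2 of 32, against 3.24% of all probe sets, and the medians were 0.04 and 0.13. These lists, and Eprs, Ndufs1, Srebf1, Fasn, Acly and Tkt as named genes, were chosen after their values were seen.

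Further rises without replicate 1 fell in several functions. Nrg4, a growth factor of the EGF family secreted by fat, read 4.88, 2.71 and 2.93 in vehicle and 4.02, 3.62 and 4.04 with aldosterone (1.07 ± 0.13, adjusted p = 0.00417), near the floor of the assay, and with values under 4 set to 4 the difference was 0.02. Rgs2, which curbs vasoconstrictor signalling through Gq, read 10.03, 9.24 and 9.26 against 10.22, 10.40 and 9.97 (0.94 ± 0.19, adjusted p = 0.0343), but 0.85 with an adjusted p of 0.053 after median centring. Another Rgs2 probe set gave 0.74 without replicate 1 (adjusted p = 0.101). Sphk1, which makes sphingosine 1-phosphate and was chosen after its values were seen, read 8.10, 7.74 and 7.85 against 8.57, 8.55 and 8.79, all above all vehicle samples. Its difference was 0.84 ± 0.16 (adjusted p = 0.0306), and at 4 and 8 h it was 1.15 (adjusted p = 0.00274) and 1.54 (adjusted p = 2.59e-05). The difference between the effects at 2 and 8 h did not pass without replicate 1 (-0.70, adjusted p = 0.232). A dimmer Sphk1 probe set gave 0.67 at 2 h without replicate 1 (adjusted p = 0.347). Vwa1, an extracellular matrix protein, was at least 1.34-fold higher, in a direction fixed by the rule, and Wdr55, a nucleolar protein, at least 1.41-fold higher (fitted 1.14 ± 0.23, adjusted p = 0.0377). The uncharacterised 2310061I04Rik was at least 1.30-fold higher (fitted 1.10 ± 0.23, adjusted p = 0.0434), with 0.29 at another probe set (adjusted p = 0.561). At the first of these, and for Wdr55, only aldosterone samples were above 4 without replicate 1, so both directions are a description. The calls of Sphk1, Wdr55, Vwa1, Rgs2 and 2310061I04Rik ended without vehicle replicate 2 or vehicle replicate 3, at adjusted p of 0.0669 to 0.237.

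Besides Hes1, the genes that fell without replicate 1 included 3 transcription factors. Meox2, a homeobox factor of mesoderm and vascular smooth muscle, read 5.25, 5.81 and 5.72 in vehicle and 5.07, 4.75 and 4.77 with aldosterone (-0.90 ± 0.17, adjusted p = 0.0294). Another Meox2 probe set gave -0.30 (adjusted p = 0.628). Sp4, a zinc finger factor of the Sp family, fell by 0.94 (adjusted p = 0.0412) and the secreted phospholipase Pla2g2c by 0.95 (adjusted p = 0.0294). Irx3, an Iroquois homeobox factor, read 4.59 in replicate 1 but 6.86 and 6.83 in the other vehicle samples, against 6.02, 5.94 and 6.17 with aldosterone; its difference was -0.80 ± 0.17 without replicate 1 (adjusted p = 0.0412) and -0.05 ± 0.40 with it. Rilpl2, a regulator of cilia and membrane traffic, fell by 0.80 (adjusted p = 0.0434), the RNA-binding protein Hnrnpdl by 0.47 (adjusted p = 0.0466) and the tyrosine phosphatase Ptpn12 by 0.42 (adjusted p = 0.0386). The 5 other Hnrnpdl probe sets gave differences of -0.38 to 0.04, none past the threshold. The calls of Irx3, Hnrnpdl, Ptpn12 and Pla2g2c were lost whichever aldosterone sample was left out, at adjusted p of 0.0549 to 0.131. Those of Meox2, Sp4 and Rilpl2 were lost without aldosterone replicate 3 (adjusted p = 0.0744, 0.0876 and 0.09). Without vehicle replicate 2, which left 1 vehicle sample, the differences of these genes ran from -0.99 to -0.41. The largest falls of all carried no single gene symbol and are not named here.

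Of the classical corticosteroid targets named in the background, none passed the threshold at 2 h. Fkbp5, which binds steroid receptor complexes and lowers their hormone affinity, read 7.51, 5.88 and 6.73 in vehicle and 6.84, 6.95 and 6.84 with aldosterone, with overlapping groups. Its difference was 0.17 ± 0.26 (adjusted p = 0.83), and 0.57 without replicate 1 with a 95% interval of 0.18 to 0.97 (adjusted p = 0.168). Zbtb16, a transcriptional repressor with zinc fingers, read 8.52, 8.53 and 8.91 against 8.77, 8.65 and 8.48 (-0.02 ± 0.19, adjusted p = 0.978). Sgk1, which keeps epithelial sodium channels at the cell surface, read 12.64, 12.72 and 12.60 against 12.76, 12.50 and 12.73 (0.01 ± 0.17, adjusted p = 0.991), and its 95% interval without replicate 1 ran from -0.39 to 0.39. The groups overlapped for both Zbtb16 and Sgk1. Per1, a repressor of the circadian clock, read 8.55, 7.51 and 7.71 against 8.78, 8.29 and 8.39; all aldosterone samples were above vehicle replicates 2 and 3 but the difference of 0.88 ± 0.23 did not pass (adjusted p = 0.0982; 0.56 with replicate 1, adjusted p = 0.423). Tsc22d3, known as GILZ, gave -0.18 (adjusted p = 0.824) and Nr3c1, the glucocorticoid receptor, -0.14 (adjusted p = 0.746).

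Across the corticosteroid response list, 23 of 25 genes were measured and none passed with all samples. Their median was 0.02, and 14 were above 0. Without replicate 1 Mt1 and Mt2 rose, the median was 0.14 and 9 of 23 genes had all aldosterone samples above both vehicle samples, against 19.7% of all probe sets. Tgm2, chosen after its values were seen, also passed without replicate 1, at a probe set other than its brightest. That call was lost whichever aldosterone sample was left out (0.49 to 0.57, adjusted p = 0.0737 to 0.108). The other Tgm2 probe sets gave -0.03 to 0.68 without replicate 1, none past the threshold. At 4 h 6 of the 23 had risen (0.215% of all probe sets were called higher) and at 8 h 9 had (0.826%). Of the 18 genes of corticosteroid receptors and sodium transport 8 were measured and none passed in either comparison. Hsd11b1, which regenerates active glucocorticoids, gave 0.43 without replicate 1 (adjusted p = 0.44), and Nedd4l, a ubiquitin ligase of the epithelial sodium channel, 0.50 (adjusted p = 0.438). Cdkn1a, the cell cycle inhibitor p21, gave 0.43 (adjusted p = 0.0982).

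The size of the hormone effect at 2 h was tested against that at 8 h and 4 h. The difference between the effects at 2 and 8 h passed for 18 probe sets (0.155%), all with a lower value at 2 h, and that between 2 and 4 h for 2 (0.0172%). Zbtb16 differed by 1.80 at 4 h and 2.82 at 8 h, so the 2 h effect was lower by 1.82 (adjusted p = 0.0147) and 2.84 (adjusted p = 1.89e-05). A dimmer Zbtb16 probe set gave -2.13 for the difference between 2 and 8 h (adjusted p = 0.0792). At the brighter one, vehicle samples ran from 8.52 to 8.91 at 2 h and from 5.96 to 6.49 at 8 h, whereas aldosterone samples ran from 8.48 to 8.77 and from 8.89 to 9.22. The connective tissue growth factor gene Ccn2 had a like pattern, with vehicle samples at 14.31 to 14.36 at 2 h and 12.84 to 13.15 at 8 h, and aldosterone samples at 14.28 to 14.39 and 13.79 to 13.93. For both genes the 2 h levels in vehicle were the high ones. Fkbp5 differed by 1.90 at 4 h and 2.80 at 8 h, and its 2 h effect was below the 8 h effect by a log2 difference of -2.63 (adjusted p = 0.00252). Sgk1 had risen at 4 h (0.93, adjusted p = 0.0209), but its difference between 2 and 8 h of -0.75 did not pass (adjusted p = 0.36).

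**Figure D3:**
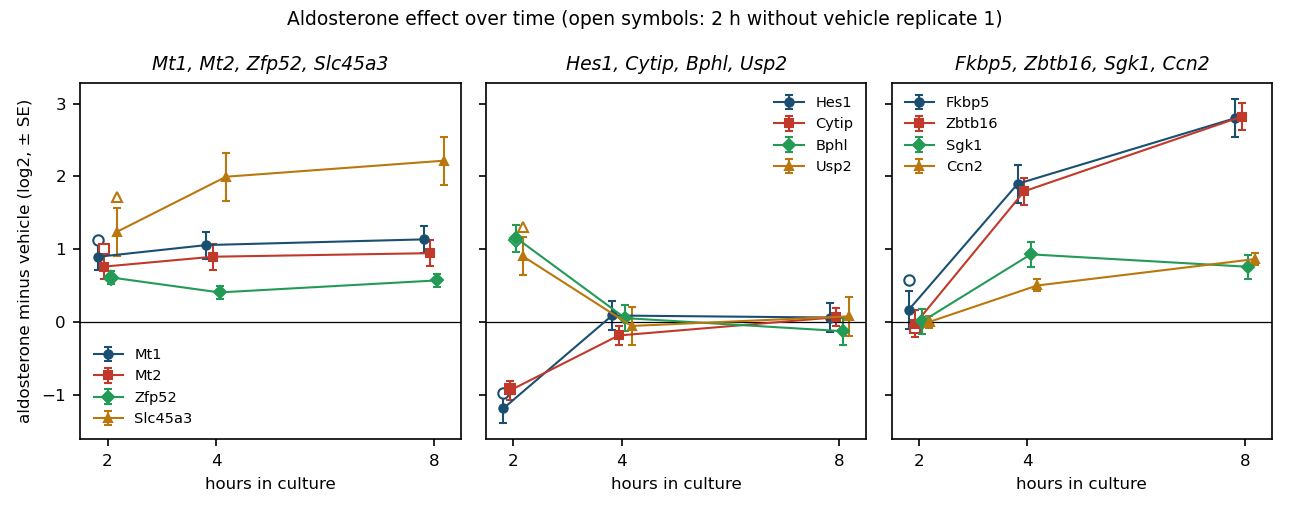
Log2 difference between aldosterone and vehicle ± SE at 2, 4 and 8 h in culture, for 4 genes with a rise at 2 h (left), 4 with a change at 2 h and values near 0 later (middle) and 4 that rose later (right); open symbols give the 2 h value without vehicle replicate 1. Mt1 and Mt2 are near their 8 h value at 2 h, while Zbtb16, Sgk1 and Ccn2 start at 0. At 4 and 8 h the log2 levels of Hes1 lay near 4 and those of Bphl and Cytip below 4 in both groups.

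Later values of the probe sets called at 2 h are given with their levels in view, since the rule used only samples at 2 h. Of the 54 higher and 19 lower in the 5-sample comparison, 7 and 3 had no sample above 4 at 4 h and 8 and 4 had none at 8 h, Bphl, Cytip, Prkra, Vwa1 and Nrg4 among them, so that their later differences could only be small. Of the 54 probe sets higher in the 5-sample comparison, 34 were above 0 at 4 h and 32 at 8 h, with medians of 0.94 at 2 h, 0.09 at 4 h and 0.06 at 8 h; 10 were also called higher at 4 h and 9 at 8 h. Of the 19 lower, 14 kept the sign at each later time, with medians of -0.92, -0.09 and -0.16, and none was called. These probe sets were chosen for their size at 2 h, so the smaller later medians are a description, and the difference between times was tested for each probe set. Of the 7 genes only Cytip passed the test between 2 and 8 h (-1.01), but its 8 h samples ran from 3.10 to 3.22, below the level of 4, and nothing is read from this. For Hes1 the 4 and 8 h differences were 0.09 and 0.06, but the difference between effects at 2 and 8 h, -1.25, did not pass (adjusted p = 0.102). Samples of Hes1 in both groups ran from 4.10 to 4.56 at 4 h and from 4.13 to 4.64 at 8 h. These lay near the level of 4, so that a later fall could only be small. In the 5-sample comparison 31 probe sets passed this test (0.267%), 7 of them higher at 2 h (0.0602%), among them Wdr55 (1.57, adjusted p = 0.0425) and a Scd1 probe set chosen after its values were seen (1.39, adjusted p = 0.0482). Without replicate 1 only aldosterone samples of Wdr55 were above 4 at 2 h, so its value is a description. Zfp52 kept its size, with 0.41 at 4 h (adjusted p = 0.0855) and 0.57 at 8 h (adjusted p = 0.00186).

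The genes that rose later were traced back to 2 h. At 8 h 96 probe sets were called higher, and 68 of them had a difference above 0 at 2 h, or 79 without replicate 1, against 36.3% and 56% of all probe sets. Their median at 2 h was 0.08, or 0.20 without replicate 1, compared with 1.09 at 8 h. All 3 aldosterone samples were above all vehicle samples in 16 of the 96, against 3.24% of all probe sets, and above vehicle replicates 2 and 3 in 43, against 19.7%. Of the 96, 1 had been called higher at 2 h, against 0.0344% of all probe sets, or 8 without replicate 1, against 0.465%. Of the 25 called higher at 4 h, 20 were above 0 at 2 h with a median of 0.17, and 5 were called at 2 h without replicate 1. The caspase inhibitor Birc2 and the growth factor Pgf, both chosen after their values were seen, gave 0.81 (adjusted p = 0.0728) and 0.73 (adjusted p = 0.507) at 2 h. Leaving out vehicle replicate 2 lowered the number above 0, among the 102 called higher at 4 or 8 h, from 72 to 55, and leaving out vehicle replicate 1 raised it to 84.

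**Figure D4:**
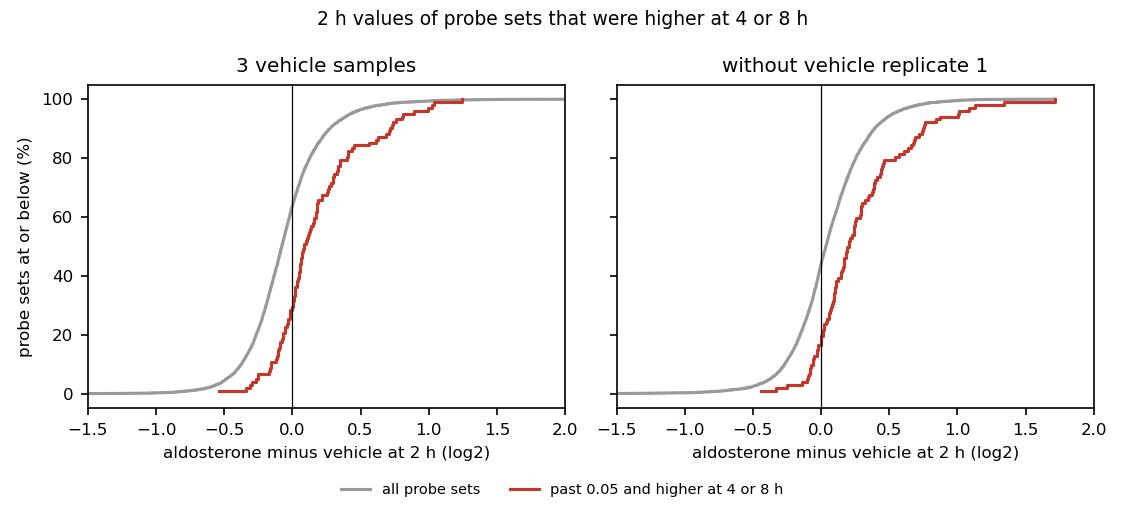
Cumulative share of probe sets at or below each log2 difference at 2 h, for all 11621 (grey) and for the 102 called higher at 4 or 8 h (red), with 3 vehicle samples (left) and without vehicle replicate 1 (right). The red curve lies to the right of the grey one in both panels, and 72 of the 102 differences are above 0 in the left panel.

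Promoters were searched for the core of the corticosteroid response element. The windows were those of RefSeq in build GRCm38, from 250 bases before to 50 bases after each start, and the letters searched were GNACA, any 3 bases and then TGTNC, where N is any base. The whole reads the same on both strands. They occur in 0.475% of all 32851 windows and in 20 of 5504 measured genes with a window (0.363%). Of the 34 genes with a window that rose at 2 h without replicate 1, 1 held it (2.94%), Mt1, and none of the 8 that fell did. Of the 50 with a window that had risen at 8 h, 5 held it (10%): Map3k6, Mt1, Serpina3n, Sgk1 and Slc10a6. Their stretches around the match are printed because these are the later hormone-responsive genes with the element near the start, which can be set beside their values at 2 h; the match is in capitals.
Mt1, chr8:94178955-94179047, plus strand, 94 to 82 bases upstream of the start: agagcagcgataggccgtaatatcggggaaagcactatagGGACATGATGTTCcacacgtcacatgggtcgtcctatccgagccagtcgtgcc
Sgk1, chr10:21993662-21993754, plus strand, 188 to 176 bases upstream in 1 of its 6 windows: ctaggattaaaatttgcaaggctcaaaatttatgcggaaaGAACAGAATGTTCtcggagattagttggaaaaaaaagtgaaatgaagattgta
Map3k6, chr4:133240597-133240689, plus strand, 181 to 169 bases upstream: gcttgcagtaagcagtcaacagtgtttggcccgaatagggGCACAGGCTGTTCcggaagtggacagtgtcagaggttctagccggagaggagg
Serpina3n, chr12:104406590-104406682, plus strand, 78 to 66 bases upstream: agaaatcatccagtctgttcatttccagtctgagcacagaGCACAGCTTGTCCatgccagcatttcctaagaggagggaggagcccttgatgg
Slc10a6, chr5:103629514-103629606, minus strand, 163 to 151 bases upstream: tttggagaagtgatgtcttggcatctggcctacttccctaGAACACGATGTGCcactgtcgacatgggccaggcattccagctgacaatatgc

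These 5 genes gave different values at 2 h, and differences between the genes were not tested. Mt1 passed at 2 h only without replicate 1 (1.13, adjusted p = 0.00697), with 0.90 when it was kept (adjusted p = 0.086). The stress kinase gene Map3k6 had all aldosterone samples above all vehicle samples, with 0.71 at 2 h (adjusted p = 0.234) and 1.28 at 8 h (adjusted p = 0.00389). The steroid sulfate transporter Slc10a6 gave 0.72 (adjusted p = 0.487), or 1.09 without replicate 1 (adjusted p = 0.194), and 1.90 at 8 h (adjusted p = 0.0174). The acute phase serpin Serpina3n gave 0.16 at 2 h (adjusted p = 0.863) and 1.56 at 8 h (adjusted p = 0.00889), and Sgk1 gave 0.01 at 2 h. A match is a description of letters, and no match says nothing about receptor binding elsewhere.

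Immediate early and inflammatory genes had lower median values with aldosterone, and no member passed. The immediate early list, transcription factors and regulators induced within minutes by handling or growth stimuli, had 22 of 24 genes measured. Its median was -0.31, and -0.26 without replicate 1, with 3 and then 2 of 22 above 0. All aldosterone samples lay below all vehicle samples in 9 of 22, against 10.8% of all probe sets, and below vehicle replicates 2 and 3 in 11 of 22, against 14%. Jun, a subunit of AP-1, read 12.65, 12.25 and 12.25 in vehicle and 11.91, 11.68 and 11.96 with aldosterone (-0.54 ± 0.12, adjusted p = 0.132). Zfp36, which promotes decay of cytokine mRNAs, read 12.32, 11.54 and 11.84 against 11.35, 11.25 and 11.37 (-0.58 ± 0.16, adjusted p = 0.208). The list's mean level was 11.30, 11.26 and 11.13 in vehicle and 10.93, 10.86 and 11.08 with aldosterone, without overlap.

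The inflammatory list was alike in direction. Of 26 genes 19 were measured, with a median of -0.27, or -0.36 without replicate 1, and none passed in either comparison. Il11, a cytokine of the IL-6 family, read 6.48, 6.56 and 6.25 in vehicle and 5.45, 5.50 and 5.63 with aldosterone and came nearest to the threshold (-0.90 ± 0.18, adjusted p = 0.0728; -0.88 without replicate 1, adjusted p = 0.0517). The endothelial selectins Sele and Selp, which capture leukocytes, gave -1.03 (adjusted p = 0.212) and -0.80 (adjusted p = 0.226), with all aldosterone samples below all vehicle samples. Endothelial markers had a median of -0.09 in both comparisons, with 2 of 9 above 0 in the 6-sample one. Their part in the selectin values was not tested. Ptprc, the leukocyte common antigen and the only 1 of 8 lymphocyte markers measured, read 6.31, 6.70 and 5.74 against 5.46, 5.66 and 5.07 (-0.86, without overlap). Cytip was lower too, with every aldosterone sample under 4. Macrophage markers went the other way, with 5 of 8 above 0, or 8 of 8 without replicate 1.

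**Figure D5:**
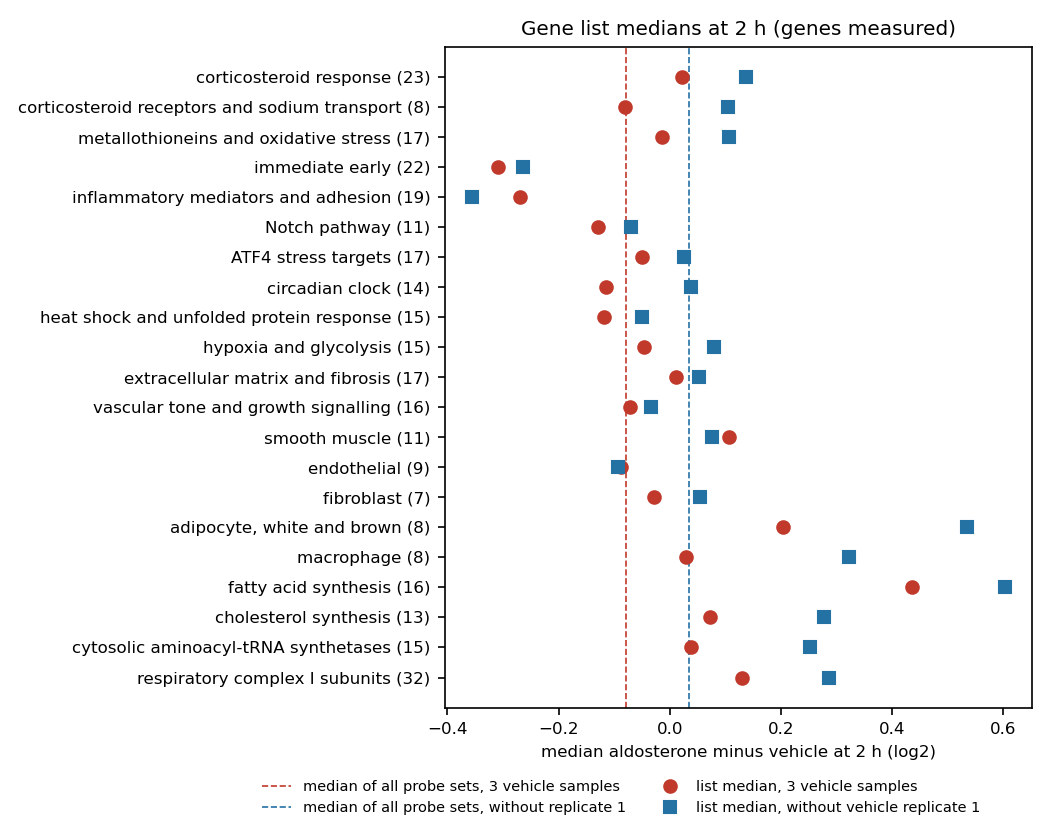
Median log2 difference at 2 h over the measured members of each gene list with at least 7 of them (number in brackets), with 3 vehicle samples (circles) and without vehicle replicate 1 (squares); dashed lines give the medians of all probe sets, -0.078 and 0.035. The immediate early and inflammatory lists lie lowest of those shown and fatty acid synthesis highest, and most lists move to the right without replicate 1.

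The calls in the other pathway lists were genes already described. In the Notch list, 11 of 17 genes measured, Hes1 fell in both comparisons, while the related repressors Hey2 and Heyl gave -0.38 (adjusted p = 0.309) and 0.63 (adjusted p = 0.212), in opposite directions. Rgs2 was the single call in the list of vascular tone and growth signalling (1 of 16, without replicate 1, against 0.465% of all probe sets). Mt1 and Mt2 were the calls in the list of metallothioneins and oxidative stress (2 of 17, without replicate 1, against the same 0.465%). The other named members of this list, Sod1, a superoxide dismutase, and Gclm, of glutathione synthesis, gave 0.33 (adjusted p = 0.243) and -0.29 (adjusted p = 0.291) without replicate 1. Another Sod1 probe set gave -0.35 without replicate 1 (adjusted p = 0.401). No member passed in the lists of ATF4 stress targets (17 measured), circadian clock (14), heat shock and unfolded protein response (15), hypoxia and glycolysis (15) or extracellular matrix and fibrosis (17). The clock output factor Dbp had the widest difference, reading 7.87, 9.54 and 9.17 in vehicle and 7.29, 6.87 and 7.47 with aldosterone (-2.14 ± 0.52 without replicate 1, adjusted p = 0.0758). Arntl, the positive clock factor also called Bmal1, gave 0.68 ± 0.16 (adjusted p = 0.0621). Chac1, which breaks down glutathione, had 2 of 6 samples above 4 and so lay just outside the rule; it read 2.90, 2.93 and 2.89 in vehicle and 4.56, 4.33 and 3.98 with aldosterone.

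The tissue carried the markers of an artery wall with its surrounding fat. All 11 smooth muscle markers, 9 of 11 endothelial, 7 of 8 fibroblast, 8 of 11 adipocyte and 8 of 11 macrophage markers were measured, against 0 of 4 mesothelial, 1 of 6 skeletal muscle and 2 of 6 cardiac muscle markers. The mean log2 level of smooth muscle markers ran from 10.53 to 10.67 in vehicle and from 10.65 to 10.75 with aldosterone. Macrophage markers read 7.60, 6.64 and 6.76 against 6.76, 7.29 and 6.97, with a median difference of 0.03, or 0.32 without replicate 1. No cell type marker passed the threshold in either comparison. RNA quality was read from the 3' minus 5' log2 signal of array controls. That of beta-actin was 1.63, 2.09 and 2.11 in vehicle and 1.86, 1.77 and 1.88 with aldosterone (difference -0.11, two-sided exact permutation p = 0.5, the smallest possible being 0.1), and -0.27 without replicate 1 (exact permutation p = 0.1, the smallest possible). That of Gapdh differed by -0.003 (exact permutation p = 1). The part of RNA quality in the differences at 2 h was not tested.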

How the data were processed

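RNA from each pool was hybridised to 1 expression array. The deposited values are log2 expression per probe set, made by the authors with GCRMA, per the submitters' processing notes; its version is not given in the sources used here. The deposited values do not share 1 distribution, since the median over all probe sets was 4.42 in vehicle replicate 1 at 2 h and 4.01 to 4.09 in the other samples. Values under about 4 hold little signal. No read depth applies, and the number of arrays limits the precision.

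The 64 control probe sets were left out, and probe sets with a log2 value above 4 in 3 or more of the 6 samples at 2 h were kept. limma 3.58.1 (R 4.3.3) estimated 1 mean per group from the 18 samples, with the prior spread following intensity; a repeat left out vehicle replicate 1 at 2 h and used 17. Benjamini-Hochberg adjustment ran over the 11621 probe sets. The fit was also run on simulated data, and nothing is read from that run here. Where all samples of a group lay at or under 4, a fold is given as a bound against that level. Array controls were compared by exact permutation.

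Replicate numbers are shared between groups in the labels but no label says that they mark a common day or litter; samples of the same number at 2 h deviated together with correlations of 0.09, 0.08 and 0.01, so they were not treated as pairs. The members of the comparison and the gene lists were chosen with earlier results of these data known. Genes were named where they are common corticosteroid targets, were among the largest calls in either fit, had the smallest p-values of a pathway list, or had the smallest p-values for the difference between 2 and 8 h; others are marked as chosen after their values were seen, and so are Map3k6, Serpina3n, Slc10a6, Chac1, Vegfa and Col3a1. Gene symbols come from the platform annotation, with 20351 of 20380 probe sets of 1 gene matched to RefSeq.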

Additional observations from a re-analysis of the deposited data

Results flagged for a closer look

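For 9 genes the hormone effect at 2 h differed from a later one by a test of the difference itself (limma, Benjamini-Hochberg adjustment over all probe sets). The 2 h minus 8 h value was -2.84 for Zbtb16 (adjusted p = 1.89e-05), and its 2 h minus 4 h value was -1.82 (adjusted p = 0.0147). It was -2.63 for the co-chaperone Fkbp5 (adjusted p = 0.00252), -1.64 for the clock repressor Per2 (adjusted p = 0.043) and -0.87 for the matricellular growth factor Ccn2 (adjusted p = 0.002). It was -1.21 for the hydroxylase Asph (adjusted p = 0.00434), -1.07 for the phosphohydrolase Nudt4 (adjusted p = 0.0032) and -0.92 for the membrane protein Tmem123 (adjusted p = 0.0329). Map3k8, a kinase of inflammatory signalling, had -1.67 (adjusted p = 0.0391), from -0.54 at 2 h and 1.13 at 8 h. For Cytip the value was -1.01 (adjusted p = 0.0226), but it entered only through its vehicle samples at 2 h and had no sample above 4 at 4 or 8 h, so nothing is read from it. A brighter Cytip probe set gave -1.05 at 2 h (adjusted p = 0.29). Without vehicle replicate 1 at 2 h all 9 kept the direction, and Map3k8 alone missed the threshold (adjusted p = 0.0512).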

How the results depend on the processing

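The number of calls at 2 h moved with most choices, and the cause was not tested. With all samples 7 probe sets passed, against 0 when only the samples at 2 h were fitted (557 at an unadjusted p under 0.05), 101 with array weights, 35 with no filter, 2 with a filter at 6, 3 with 1 probe set per gene, 15 after quantile normalization or median centring, and 29 with values under 4 set to 4. Without replicate 1 73 passed, against 0 for the samples at 2 h alone (1782 unadjusted), 114 with no filter, 45 with a filter at 6, 29 with 1 probe set per gene and 111 with values under 4 set to 4. Leaving out 1 sample gave 0 to 73 calls with all samples and 12 to 66 without replicate 1; with a single vehicle sample left, it is assumed to vary like the other groups. With the replicate number as a block 8 passed with all samples and 34 without replicate 1, and with a replicate block within each time 0 passed in both (1331 and 1344 unadjusted). For the difference between 2 and 4 h, 2 calls became 5 with no filter, 1 with the replicate block and 1 to 5 without 1 sample. For that between 2 and 8 h, 18 became 32 with no filter, 16 with the replicate block and 12 to 31 without 1 sample. No named probe set past the threshold changed sign, and 1 of the 73, with no single gene symbol, had the other sign with all samples. Among named probe sets the values kept their side of the threshold in 1629 alternatives with all samples (95 gained it, 40 lost it) and in 1346 without replicate 1 (14 gained it, 304 lost it). Centring or quantile normalization turned the sign of the small medians of the metallothionein, ATF4, clock, hypoxia, matrix, fibroblast and smooth muscle lists in at least 1 of the comparisons, and those of the immediate early, inflammatory, fatty acid and adipocyte lists kept theirs. After either scaling 1 inflammatory gene passed as lower without replicate 1.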
